A study of Mus musculus with 6 samples.

Results

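The complement components examined here were 8 genes named by symbol, C1qa, C1qb, C1qc, C3, C4b, Cfb, Cfd and Serping1, out of 55401 gene identifiers measured. Each symbol matched 1 Ensembl identifier. Poly(A) RNA from heart muscle (myocardium) of wild-type male mice was sequenced. The DM group had received STZ (streptozotocin, which kills pancreatic beta cells and so makes mice diabetic), and the Ctrl group had received PBS. Each group had 3 libraries labelled 8 weeks, and the labels give neither the strain nor when that time began. Whether each library is a different mouse is not stated, so the p-values below reflect variation among libraries that may be technical.

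Complement is a cascade of plasma and tissue proteins that marks targets for uptake by phagocytes and can open pores in membranes. The classical pathway starts when C1q, built from the chains A, B and C, binds a target and its attached proteases cut C4 and then C2. The alternative pathway runs on C3, factor B (Cfb) and the protease factor D (Cfd), and both pathways meet at the cutting of C3. Serping1 encodes the C1 inhibitor, which blocks the proteases attached to C1q. The liver makes most plasma complement. In tissues, C1q comes largely from macrophages, and C3, C4 and the C1 inhibitor also from fibroblasts and other stromal cells.

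The values are FPKM, fragments per kilobase of a transcript relative to all mapped fragments of the library, so levels can be compared between genes per unit of length. Complete files, of which there were 5, had FPKM sums of 531384 to 589719. The file of Ctrl replicate 3 lists 7711 of the 55401 genes. Of the 8 genes it holds C3 and Serping1. The test therefore used DM replicates 1 to 3 and Ctrl replicates 1 and 2, and the third Ctrl value is given where it is listed. The number of fragments behind a value is unknown, so no counting interval is given. Cardiomyocyte transcripts were abundant throughout, as the tissue label has it, and the 8 markers listed summed to 8987 to 10400.1 FPKM in DM and 11927 and 12600 FPKM in Ctrl, without overlap. Of these 8, the cardiac actin gene Actc1 was lower in DM (2747 to 3338 FPKM, against 4832 and 4890 FPKM in Ctrl, limma adjusted p = 0.0282) and 0 were higher, with 7 negative signs and a median log2 fold change of -0.27. Actc1 was the largest part of the sum in each library, and without it the sums of the groups overlapped. The troponin gene Tnnt2 went the other way, at 813.13, 847.61 and 1098.52 FPKM in DM. It measured 670.88 to 755.99 FPKM in the 3 Ctrl libraries (limma adjusted p = 0.218). The calcium channel gene Ryr2 measured 21.8, 12.35 and 7.95 FPKM in DM and 28.92 to 35.58 FPKM in the 3 Ctrl libraries (limma adjusted p = 0.101). The part of this lower cardiomyocyte sum in the results below was not tested. In bulk tissue, fewer cells of a type and less RNA per cell cannot be told apart.

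C4b, which carries the classical pathway from C1q towards C3, was the one component that passed the test, and it was higher in DM hearts. The 3 C1q chains, C3 and Cfb did not pass and their DM and Ctrl values overlapped. Serping1 was higher and Cfd lower in every DM library than in every Ctrl library, without passing. All 8 genes reached 1 FPKM in at least 2 of the 5 libraries and were tested. Of the 8, 1 was called at a limma adjusted p under 0.05, where 5.82% of 11556 genes were called (3.64% higher in DM and 2.17% lower in DM). The groups did not overlap for 3 of the 8, against 47.4% of all tested genes. Of the 3, 2 were higher in DM (background 28.7%) and 1 was lower in DM (background 18.8%). The median log2 fold change of the 8 was -0.03, and that of all tested genes was 0.06. Higher genes made up 62.6% of all calls with FPKM as deposited, 48.5% after centring on the median, 50.2% after quantile normalization, 49.3% after rescaling without mitochondrial genes and 73.1% after rescaling to TPM.

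**Figure D1:**
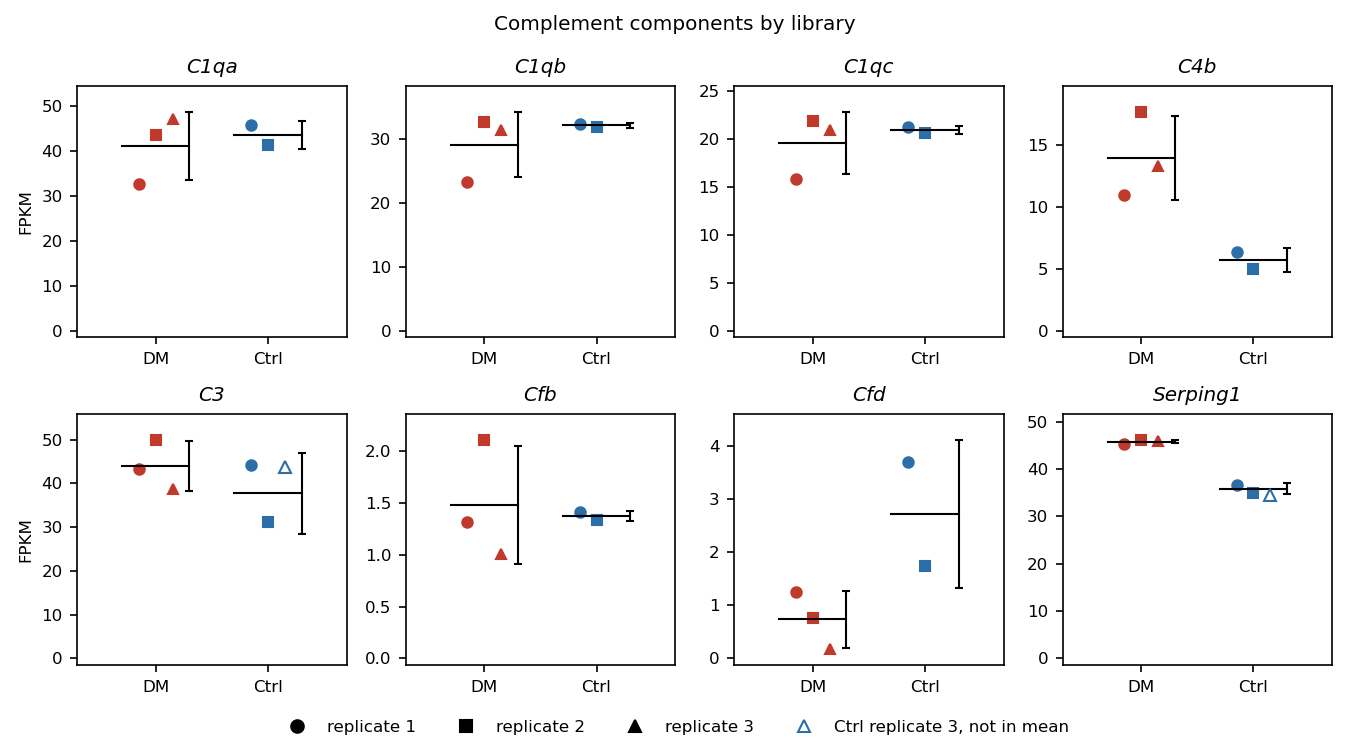
FPKM of the 8 complement components in each library, DM left of Ctrl, with symbols for the replicate number, a line at the group mean and a bar of 1 SD (n = 3 DM and n = 2 Ctrl). C4b ran from 10.96 to 17.66 FPKM in DM and was 6.37 and 5.02 FPKM in Ctrl, and the open triangle is Ctrl replicate 3, listed for C3 and Serping1.

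The order of levels was close to the same in both groups. In DM hearts Serping1, C3 and C1qa stood highest, with means of 45.8, 44.0 and 41.0 FPKM and overlapping ranges. In Ctrl hearts the same 3 stood highest, in the order C1qa, C3 and Serping1, at 43.4, 37.7 and 35.8 FPKM, and neighbours in that order overlapped. C1qb, C1qc and C4b followed in both groups. C1qc and C4b overlapped in DM (15.84 to 21.84 and 10.96 to 17.66 FPKM) but were apart in Ctrl (20.61 to 21.19 and 5.02 to 6.37 FPKM). Cfb and Cfd were lowest. In DM their ranges overlapped with Cfb the higher, and in Ctrl Cfd lay above Cfb without overlap.

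The 3 chains of C1q are encoded side by side on the minus strand of chromosome 4 (GRCm38). C1qb (ENSMUSG00000036905) lies at 136880129 to 136886187, C1qc (ENSMUSG00000036896) at 136889804 to 136893065 and C1qa (ENSMUSG00000036887) at 136895917 to 136898803, with gaps of 3616 bases between C1qb and C1qc and 2851 bases between C1qc and C1qa. C1qa had no entry in the RefSeq table of start-site sequences (GRCm38.p6). C1qb and C1qc moved together between libraries, and their sequences in that table are shown for that reason. Each runs 5′ to 3′ on the minus strand from 250 bases before to 50 bases after the annotated start. Capitals mark matches to GAGGAA on either strand, a motif of the myeloid factor PU.1. The windows are chr4:136886151-136886450 for C1qb and chr4:136892865-136893164 for C1qc.
C1qb: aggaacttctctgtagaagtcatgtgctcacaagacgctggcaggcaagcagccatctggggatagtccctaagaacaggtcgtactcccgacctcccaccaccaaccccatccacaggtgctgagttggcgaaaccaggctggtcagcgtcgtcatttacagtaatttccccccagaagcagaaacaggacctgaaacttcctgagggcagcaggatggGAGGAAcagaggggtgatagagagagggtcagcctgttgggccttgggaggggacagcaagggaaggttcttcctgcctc
C1qc: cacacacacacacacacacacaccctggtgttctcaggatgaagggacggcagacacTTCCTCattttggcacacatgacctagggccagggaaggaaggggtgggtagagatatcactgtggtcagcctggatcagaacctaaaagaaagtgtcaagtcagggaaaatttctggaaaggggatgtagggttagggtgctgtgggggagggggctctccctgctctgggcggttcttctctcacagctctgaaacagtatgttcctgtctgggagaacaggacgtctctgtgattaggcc
C1qb and C1qc each held 1 match, starting 30 bases before the start in C1qb and 193 bases before it in C1qc, on opposite strands. RefSeq places the C1qc start inside the gene span given above, so the C1qc distance depends on the annotation used. The motif occurs in 28.3% of 32851 such windows, so a match is not particular to these genes. TATAAA (13.6% of windows), TTCNNNGAA of STAT factors (8.30%) and TTGCNNAA of C/EBP factors (10.8%) had no match in either window, searched on both strands.

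The C1q chains had overlapping levels in DM and Ctrl hearts, and C1qb and C1qc moved together between libraries more closely than either did with C1qa. C1qa was highest in DM replicate 3, whereas C1qb and C1qc were highest in DM replicate 2. C1qa, the A chain, measured 32.48, 43.41 and 46.99 FPKM in DM replicates 1, 2 and 3, against 45.59 and 41.18 FPKM in Ctrl replicates 1 and 2. C1qb, the B chain, measured 23.30, 32.65 and 31.30 FPKM in DM and 32.34 and 31.80 FPKM in Ctrl. C1qc, the C chain, measured 15.84, 21.84 and 20.90 FPKM in DM and 21.19 and 20.61 FPKM in Ctrl. DM replicate 1 was the lowest library for all 3 chains, while DM replicates 2 and 3 lay within or near the Ctrl values. The log2 fold changes on the log2(FPKM + 1) scale, DM minus Ctrl, were -0.10 for C1qa (95% interval -0.54 to 0.34, limma adjusted p = 0.770), -0.15 for C1qb (-0.57 to 0.26, limma adjusted p = 0.614) and -0.11 for C1qc (-0.51 to 0.29, limma adjusted p = 0.720). These intervals allow a change of about the size of their bounds in either direction, so they do not show that the levels are equal. Without DM replicate 1 the differences were 0.059 for C1qa, -0.0044 for C1qb and 0.030 for C1qc.

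The balance between the chains was nearly constant. C1qa made up 45.7% ± 1.54 of the summed C1q FPKM in DM (SD, n = 3) and 45.0% ± 1.41 in Ctrl (SD, n = 2). The shares of C1qb were 32.5% ± 0.899 in DM and 33.3% ± 0.955 in Ctrl, and those of C1qc were 21.8% ± 0.666 in DM and 21.7% ± 0.455 in Ctrl. The summed level was 71.6, 97.9 and 99.2 FPKM in DM replicates 1, 2 and 3, and 99.1 and 93.6 FPKM in Ctrl. In that sum DM replicate 1 again stood below the other 4 libraries, whereas its shares did not stand apart.

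**Figure D2:**
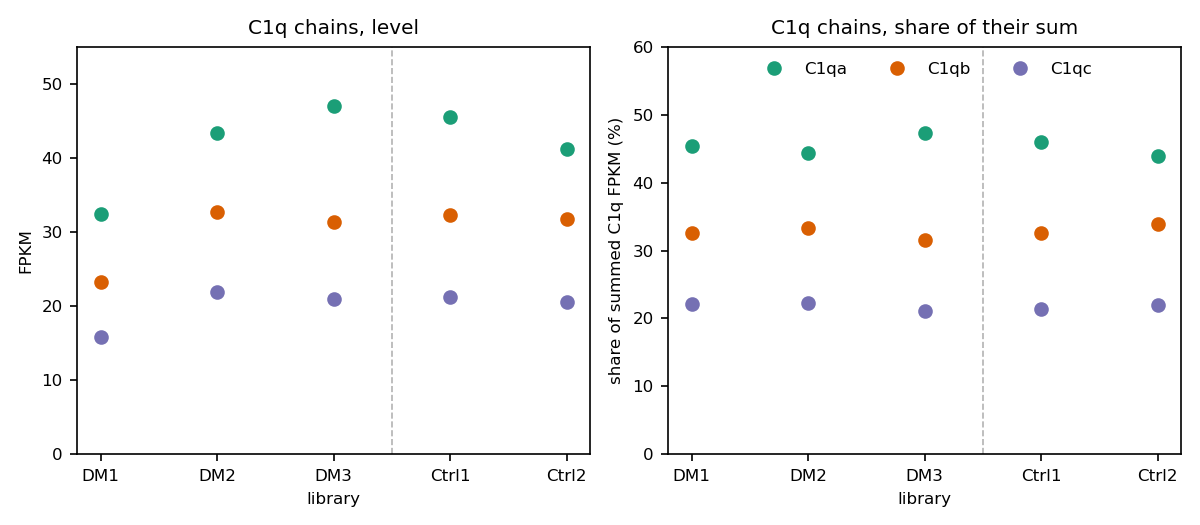
Left, FPKM of C1qa, C1qb and C1qc in each library, and right, each chain's share of their sum in percent, with DM left of Ctrl. All 3 chains are lowest in DM replicate 1 (32.48, 23.30 and 15.84 FPKM), while the share of C1qa stays between 44.0% and 47.4% in the 5 libraries.

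Macrophage markers are the transcripts to set beside C1q. Of 15 listed, 12 were tested and 0 passed in limma, with 5 positive and 7 negative signs and a median log2 fold change of -0.11. Of the 12, Aif1 met the filter through its Ctrl libraries alone. Without it, 5 of 11 signs were positive and the median was -0.0077. The summed level of the 15 markers was 115.9 to 164.0 FPKM in DM and 141.1 and 168.3 FPKM in Ctrl. The lysozyme gene Lyz2 made up 55.9% to 62.4% of it, and the sum of the others was 51.1, 64.9 and 53.0 FPKM in DM replicates 1, 2 and 3 and 63.3 and 55.1 FPKM in Ctrl. Both sums were lowest in DM replicate 1, where C1q was lowest too, but single markers differed, and among DM libraries Adgre1, Csf1r and Lyve1 were lowest in replicate 3. The general macrophage marker Adgre1 measured 1.60, 2.34 and 1.50 FPKM in DM and 3.10 to 3.77 FPKM in the 3 Ctrl libraries (limma adjusted p = 0.0668). The phagocytic receptor Mertk measured 2.81, 2.82 and 4.19 FPKM in DM and 1.63 to 1.84 FPKM in the 3 Ctrl libraries (limma adjusted p = 0.0887). Both were separated between the groups in opposite directions without passing. The part of macrophage content in the C1q levels was not tested.

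C4b was about 2.45 times as high in DM as in Ctrl hearts. The gene (ENSMUSG00000073418, chromosome 17, 34728380 to 34743882, minus strand) measured 10.96, 17.66 and 13.32 FPKM in DM and 6.37 and 5.02 FPKM in Ctrl, or 14.0 ± 3.40 (SD, n = 3) and 5.70 ± 0.955 FPKM (SD, n = 2). Every DM library lay above both Ctrl libraries. The log2 fold change was 1.14 ± 0.21 (SE, 95% interval 0.63 to 1.66, limma adjusted p = 0.0374). The difference stayed positive in all 15 other settings, between 0.97 and 1.3, and passed in 9 of them. Among these 9 was the fit with Ctrl replicate 3 added, a library that lists no C4b value. C4b did not pass without Ctrl replicate 1 (log2 fold change 1.29) or without Ctrl replicate 2 (1.00). It also did not pass without DM replicate 2 (limma adjusted p = 0.0539), without DM replicate 3 (0.0775), with no filter on low values (0.114), or with the replicate number as a block (0.112). DM replicate 3 alone carries number 3 in the block fit, which therefore gave the same log2 fold change as leaving that library out.

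C4b has a near-identical neighbour, C4a, on the same strand at 34809092 to 34823464, so reads could be shared between them. Their longest transcripts in GENCODE M21 were identical at 96.1% of 5367 aligned bases, and 16.5% of all stretches of 100 bases in the C4b transcript also occur in C4a. C4a was listed at 0.18, 0.39 and 0.23 FPKM in DM and 0.01, 0.09 and 0.18 FPKM in the 3 Ctrl libraries, far below C4b in each of the 5 libraries that list both. How reads that match both genes were assigned is not given in the sources used here, so the split is uncertain. The stretch of 60 coding bases with most differences, 13, is shown to make clear where reads can tell the genes apart, with the differing bases in capitals. It spans coding bases 2705 to 2764 of C4b.
C4b: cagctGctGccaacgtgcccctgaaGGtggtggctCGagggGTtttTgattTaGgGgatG
C4a: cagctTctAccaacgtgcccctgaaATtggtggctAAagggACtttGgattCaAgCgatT

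C3, the protein on which all complement pathways converge, was abundant in both groups and did not pass. It (ENSMUSG00000024164, chromosome 17, 57203970 to 57228136) measured 43.29, 49.93 and 38.72 FPKM in DM and 44.27, 31.15 and 43.65 FPKM in Ctrl replicates 1, 2 and 3. Only Ctrl replicate 2 lay below all DM libraries. The log2 fold change was 0.23 (95% interval -0.23 to 0.69, limma adjusted p = 0.481), and 0.15 with Ctrl replicate 3 added (limma adjusted p = 0.572). C3 lies 22460087 bases from C4b on the same chromosome.

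Cfb, the catalytic subunit of the alternative pathway's C3 convertase, was low and overlapped between groups. It measured 1.32, 2.11 and 1.01 FPKM in DM and 1.41 and 1.34 FPKM in Ctrl, with both the highest and the lowest value in DM. The log2 fold change was 0.04 (95% interval -0.46 to 0.53, limma adjusted p = 0.919). Cfb (ENSMUSG00000090231, chromosome 17, 34856374 to 34862518) lies 112491 bases from C4b. The annotated gene Gm20547 covers 79.5% of its exon length on the same strand, so its reads could be shared. Gm20547 itself was listed at no more than 0.02 FPKM in DM and no more than 0.10 FPKM in Ctrl.

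Cfd, the protease that cuts factor B and a product of fat cells known as adipsin, was lower in each DM library. The gene (ENSMUSG00000061780, chromosome 10, 79890853 to 79892655, plus strand) measured 1.26, 0.77 and 0.18 FPKM in DM and 3.71 and 1.74 FPKM in Ctrl. The groups did not overlap, and both spread widely, with DM replicate 3 lowest and Ctrl replicate 1 highest. The log2 fold change was -1.10 ± 0.34 (SE, 95% interval -1.92 to -0.28, limma adjusted p = 0.108), which did not pass. It was negative in all 14 other settings that tested it, between -1.94 with a pseudocount of 0.1 and -0.71, and passed in 0 of them (adjusted p between 0.0905 and 0.465).

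Transcripts of hepatocytes and fat cells are the ones to set beside Cfd. Of 8 hepatocyte markers 5 were tested and 0 passed in limma, with 1 positive and 4 negative signs and a median of -0.33. Their summed level was 19.9, 10.7 and 7.6 FPKM in DM replicates 1, 2 and 3 and 27.75 and 8.74 FPKM in Ctrl. The albumin gene Alb measured 3.68, 0.94 and 0 FPKM in DM and 8.02, 2.55 and 3.41 FPKM in Ctrl. Ahsg, which encodes the plasma protein fetuin A, went the other way without overlap, at 9.55, 4.48 and 5.29 FPKM in DM and 3.95, 1.96 and 1.97 FPKM in Ctrl (log2 fold change 0.90, limma adjusted p = 0.156). Without Ahsg the sum was 10.32, 6.22 and 2.31 FPKM in DM and 23.8 and 6.78 FPKM in Ctrl. Replicate 1 of each group was its highest complete library for both sums, Alb and Cfd alike, and DM replicate 3 was the lowest of all 5 for each, which did not hold for Ahsg. Between groups the orders differed, since DM replicate 1 had higher sums than Ctrl replicate 2 but less Cfd. Of the defining fat cell transcripts, Adipoq measured 0.27, 0.28 and 0 FPKM in DM and 0.31, 0.36 and 0 FPKM in Ctrl. Plin1 and Retn stayed at or below 0.09 FPKM, and Lep was listed at 0 in the 5 complete libraries. Car3, not tested, measured 0.43, 0 and 0 FPKM in DM and 1.25, 0.65 and 0.20 FPKM in Ctrl. It did not overlap in the 5 complete libraries, but Ctrl replicate 3 lay within its DM range. Cidec, not tested, measured 0.32, 0.41 and 0 FPKM in DM and 0.43 and 0.19 FPKM in Ctrl. The adipocyte list as a whole summed to 694.1 to 812.9 FPKM in DM and 529.3 and 531.2 FPKM in Ctrl. Where 3.64% of all tested genes were higher in DM, 4 of its 7 tested genes were (Lipe, Fabp4, Plin4 and Cidea). Of these, Fabp4 is also expressed by capillary endothelium. Without it the sum was 429.1 to 599.0 FPKM in DM and 451.3 and 456.2 FPKM in Ctrl, which overlap. Lpl made up most of that sum, at 245.1 to 387.2 FPKM in DM and 327.3 and 333.7 FPKM in Ctrl replicates 1 and 2. The 6 tested genes left without Fabp4 had a median log2 fold change of 0.93, and Lipe, Plin4 and Cidea among them passed. Adipoq, Plin1, Lep, Retn, Car3 and Cidec were not tested, so these calls and that median do not cover the defining fat cell transcripts. The part of either cell type in the Cfd difference was not tested.

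**Figure D3:**
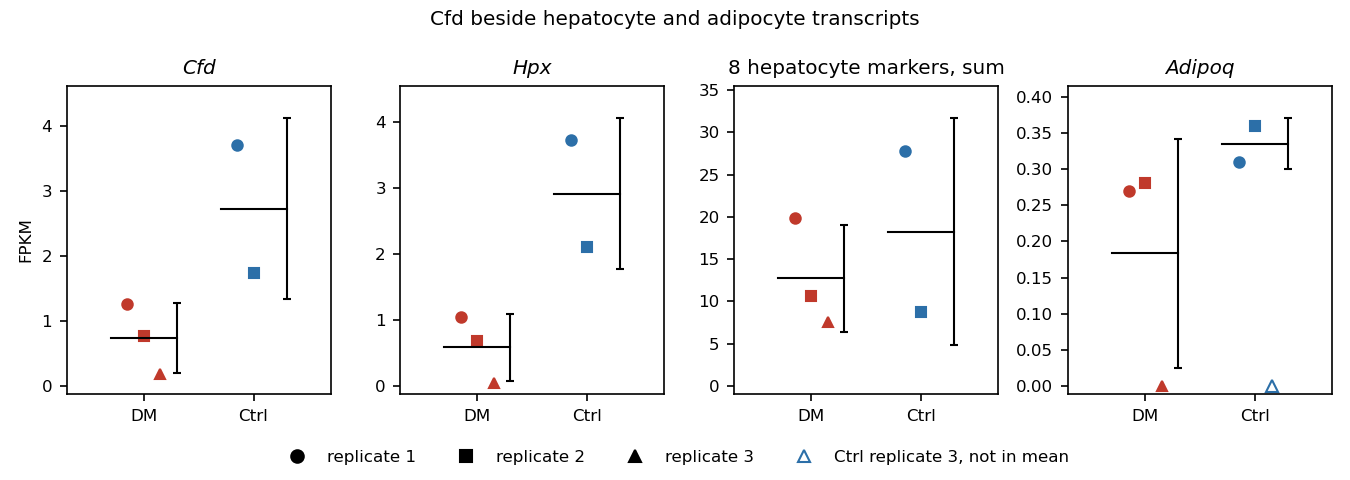
FPKM of Cfd, of the plasma protein gene Hpx, of the sum of 8 hepatocyte markers and of the fat cell gene Adipoq in each library, DM left of Ctrl, with the mean and a bar of 1 SD (n = 3 DM and n = 2 Ctrl) and Ctrl replicate 3 as an open triangle where listed. Cfd is at 1.26, 0.77 and 0.18 FPKM in DM and 3.71 and 1.74 FPKM in Ctrl, the hepatocyte sum overlaps between the groups, and Adipoq stays at or below 0.36 FPKM.

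Serping1, the C1 inhibitor, showed a small difference with little spread. The gene (ENSMUSG00000023224, chromosome 2, 84765387 to 84775444, minus strand) measured 45.35, 46.01 and 45.93 FPKM in DM and 36.67, 34.97 and 34.48 FPKM in Ctrl replicates 1, 2 and 3. All 3 DM libraries lay above all 3 Ctrl libraries, at 45.8 ± 0.360 and 35.4 ± 1.15 FPKM (SD, n = 3 each). With Ctrl replicates 1 and 2 the log2 fold change was 0.35 ± 0.11 (SE, 95% interval 0.08 to 0.61, limma adjusted p = 0.116), which did not pass. With Ctrl replicate 3 added it was 0.36 ± 0.09 (SE, limma adjusted p = 0.0449), and 10.1% of all tested genes passed in that fit. Serping1 was positive in all 15 other settings and passed in that one alone.

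Fibroblast markers, set beside C3, C4b and Serping1 as stromal products, moved in part. Of 12 tested, 6 were lower in DM (Col1a1, Col1a2, Col3a1, Pi16, Cd248 and Smoc2) and 0 higher, where 2.17% of all tested genes were lower. The signs were 4 positive and 8 negative, with a median of -0.68. Dcn measured 66.52, 74.34 and 74.22 FPKM in DM and 50.09 to 56.72 FPKM in the 3 Ctrl libraries. Pdgfra and Tcf21 were higher in each DM library than in Ctrl replicates 1 and 2, without passing. In Ctrl replicate 3 Pdgfra was 3.64 FPKM, within its DM range. The summed level of the 12 was 442.2 to 495.5 FPKM in DM and 477.4 and 516.7 FPKM in Ctrl. Gsn and Dcn, which did not pass, made up most of it. None of 10 mesothelial markers was tested, and their sum was 1.29 to 5.85 FPKM in DM and 1.27 and 2.30 FPKM in Ctrl. Of 10 neutrophil markers 3 were tested and all 3 were higher in DM (S100a8, S100a9 and Retnlg, of which Retnlg met the filter through DM alone). The sums of the 10 were 43.1 to 63.9 FPKM in DM and 3.66 and 8.30 FPKM in Ctrl. Of 10 tested endothelial markers Fabp4 alone was higher in DM (173.2, 213.9 and 264.94 FPKM, against 73.11 and 79.96 FPKM in Ctrl) and 0 were lower, with 3 negative signs and a median of 0.22. The sum of the other endothelial markers was 171.7 to 200.2 FPKM in DM and 165.3 and 166.6 FPKM in Ctrl. The part of these cell types in the C4b difference was not tested.

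Regulators known to raise complement genes were listed beside them. Interferon gamma is a cytokine that raises C4, Cfb and Serping1 in many cells. Of 15 tested genes induced by it, the GTPase Irgm1 was higher in DM and 0 were lower. Irgm1 measured 5.85, 4.61 and 5.34 FPKM in DM and 2.73 and 3.05 FPKM in Ctrl. The 15 had 14 positive signs, where 57.0% of all tested genes had a positive sign, and a median of 0.49. Nlrc5 met the filter through its DM libraries alone. Without it, 13 of 14 signs were positive and the median was 0.53. Of 8 tested genes of the acute phase and the interleukin 6 axis, Lcn2 was higher in DM and 0 were lower. It measured 2.73, 4.63 and 4.48 FPKM in DM and 0.56, 0.63 and 0.80 FPKM in Ctrl. Across all tested genes, 3.64% were higher in DM. The signs of the 8 were 6 positive and 2 negative (Il6st and Hp), with a median of 0.63. Lcn2 met the filter on low values through its DM libraries alone, so the call is limited by that choice. Without Lcn2 the median of the 7 genes left was 0.61. Cebpd, a factor of the acute phase, measured 7.73, 6.71 and 10.79 FPKM in DM and 4.42 and 2.72 FPKM in Ctrl and did not pass.

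Elsewhere in the cascade, of 46 further complement genes in the files, 20 were tested, of which 0 were higher and 1 was lower, the terminal component C7, where 5.82% of all tested genes were called. Their median log2 fold change was 0.20. Of the remaining genes, 23 stayed below 1 FPKM in all 5 libraries, among them C2, C6, Hc (the gene of C5), C8a, C8b, C9 and the protease Masp2. C7, which joins the pore-forming complex, measured 0.91, 0.72 and 0.42 FPKM in DM and 5.42 and 3.65 FPKM in Ctrl. The groups did not overlap, and the log2 fold change was -1.71 ± 0.20 (SE, limma adjusted p = 0.0138). C7 met the filter on low values through its Ctrl libraries alone, where it is high, and leaving either of them out removed it from the test. The call was lost with no filter (limma adjusted p = 0.0699) and with the replicate number as a block (0.0537). Properdin (Cfp), which stabilises the alternative convertase, measured 1.57, 2.48 and 1.65 FPKM in DM and 4.38, 2.79 and 4.29 FPKM in Ctrl, with no overlap (limma adjusted p = 0.118, and 0.0501 with Ctrl replicate 3 added).

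Of the genes of initiation, 5 were tested and 0 passed. Their signs were all positive, where 57.0% of all tested genes had a positive sign, and the median was 0.36. One of them, the protease gene Masp1 (1.25, 1.2 and 0.96 FPKM in DM, 0.74, 0.58 and 0.58 FPKM in Ctrl), met the filter through its DM libraries alone, and the median of the other 4 was 0.44. The protease C1s1, which cuts C4 and C2, measured 10.94, 12.85 and 15.89 FPKM in DM and 11.29 and 10.52 FPKM in Ctrl (log2 fold change 0.24, limma adjusted p = 0.406). C1ra and C1s1 each have a near copy, C1rb and C1s2, so their values are uncertain. The lectin Colec11 measured 9.83, 13.46 and 13.34 FPKM in DM and 8.05 and 5.32 FPKM in Ctrl, without overlap (log2 fold change 0.79, limma adjusted p = 0.0806).

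Among regulators 7 of 13 were tested and 0 passed, with a median of 0.08. Clusterin (Clu), an inhibitor of the terminal complex, was the most abundant, at 248.67, 193.43 and 161.71 FPKM in DM and 172.88, 162.26 and 160.83 FPKM in Ctrl (limma adjusted p = 0.462). Cd59a, a membrane inhibitor of the same step, measured 24.88, 13.25 and 22.51 FPKM in DM and 14.73 and 14.23 FPKM in Ctrl (limma adjusted p = 0.366).

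Among receptors and C1q-binding proteins 6 of 10 were tested and 0 passed, with a median of 0.07. Calr (calreticulin) measured 65.18, 104.59 and 65.07 FPKM in DM and 89.96, 110.01 and 96.50 FPKM in Ctrl (limma adjusted p = 0.359). Cd93 measured 7.55, 11.71 and 8.67 FPKM in DM and 13.77, 12.43 and 11.43 FPKM in Ctrl (limma adjusted p = 0.180). Vsig4, a macrophage receptor for C3 fragments, measured 2.78, 5.07 and 1.46 FPKM in DM and 0.86 and 0.51 FPKM in Ctrl, with no overlap, but it met the filter through its DM libraries alone (limma adjusted p = 0.105). Without Vsig4 the median of the receptors was -0.02. Cfp, Vsig4, Masp1, Ahsg, Ryr2 and Tnnt2 were chosen for naming after their values were seen. Genes of the marker, interferon and acute phase lists that did not pass, among them Adgre1, Mertk, Cebpd and Alb, were also named without a rule set beforehand.

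**Figure D4:**
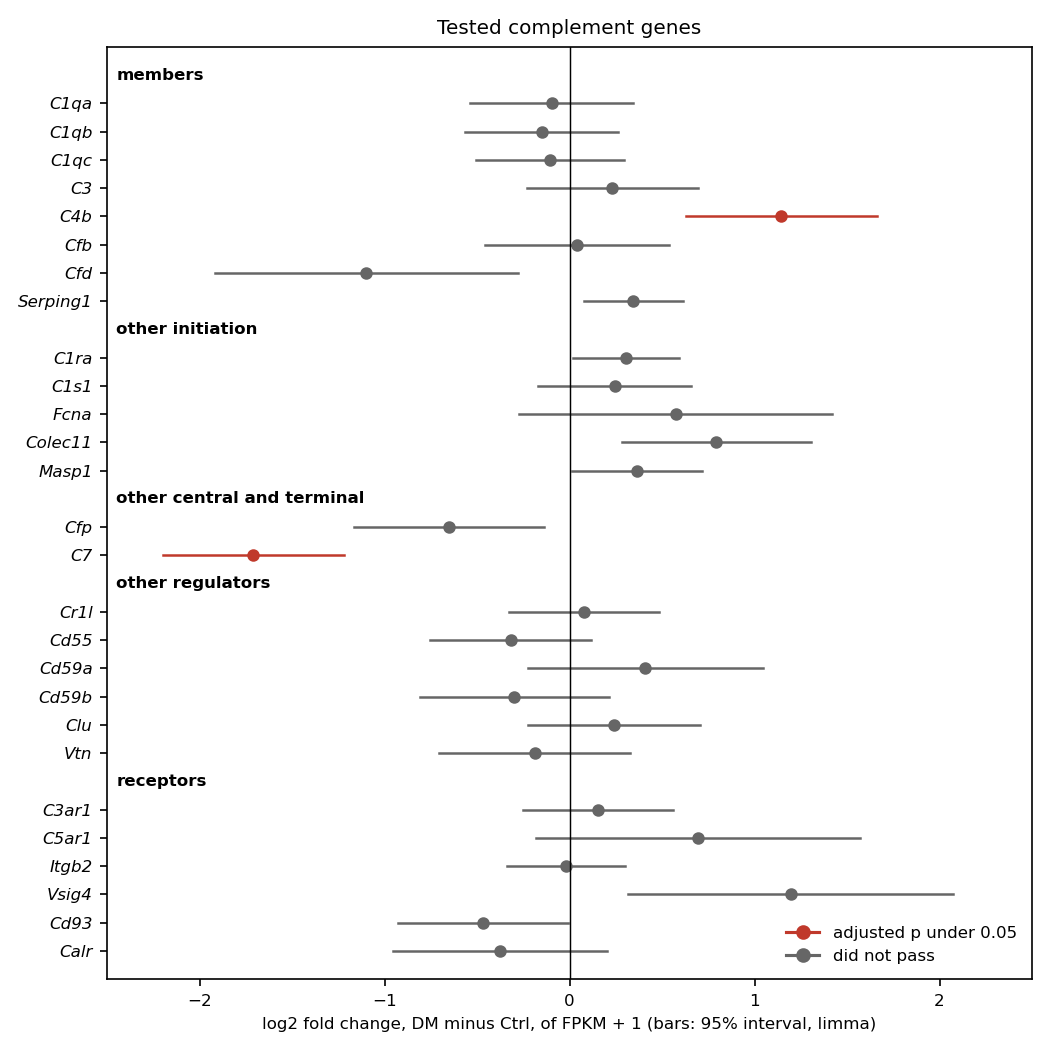
Log2 fold change of FPKM + 1, DM minus Ctrl, with its 95% interval, for 27 of the 28 complement genes tested (n = 3 DM and n = 2 Ctrl), ordered by role. C4b (1.14) and C7 (-1.71) are the genes with an adjusted p under 0.05, drawn in red.

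Genes with the most similar pattern were found from the root mean square difference of log2(FPKM + 1), each gene centred on its own mean over the 5 libraries, among 10183 tested genes. The 3 nearest to C4b were Camk2n1 (0.083), Sema3g (0.108) and Impa2 (0.125). Camk2n1 measured 9.01, 13.38 and 9.57 FPKM in DM and 5.25 and 4.12 FPKM in Ctrl. The nearest to Cfd was Hpx, which encodes the plasma haem-binding protein hemopexin (difference 0.130), at 1.04, 0.69 and 0.04 FPKM in DM and 3.73 and 2.11 FPKM in Ctrl, followed by Larp1 (0.177) and Slc17a7 (0.179). The nearest to the mean of the C1q chains was Plod3 (0.026), then Aacs (0.029) and Zscan22 (0.031). Among the chains themselves the difference was 0.025 between C1qb and C1qc, 0.067 between C1qa and C1qc and 0.072 between C1qa and C1qb. Akap10 (0.021) was nearest to C3, then Blvrb (0.041) and Vhl (0.054), and Mindy1 (0.017) was nearest to Serping1, then Casp8ap2 and Msc (0.023 each). With 5 libraries and this many genes, close matches of genes that share little else are to be found, so these are descriptions only.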

How the data were processed

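The authors deposited 1 FPKM value per gene and library, per the file headers, with 2 decimals. Per the submitters' processing notes, cutadapt 1.9, HISAT2 2.0.4 and StringTie 1.3.4d were used with GRCm38. No source used here gives the strand setting, annotation release or filters, so overlapping genes and near copies could share reads. FPKM depend on each library's total, of which mitochondrial genes made up 42.0% to 47.3%.

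Identifiers were matched to symbols and positions in GENCODE M21 (GRCm38), and 55141 of 55401 had a symbol. A library listing under 50% of the genes was left out of the fit. The filter kept genes reaching 1 FPKM in 2 or more of the 5 fitted libraries. These 11556 genes were tested on log2(FPKM + 1) in R 4.3.3 with limma 3.58.1 (lmFit, then eBayes with a trend). Tests were two-sided, with p-values adjusted by Benjamini-Hochberg over all 11556 genes at a threshold of 0.05. The added 1 understates the change of low genes. The fit had no covariates, as no batch is labelled, and was tested on simulated data. The members and lists were chosen with earlier results of these data known. Named are all 8 components, in each further complement list the genes that passed or else the 2 of highest mean FPKM, and of marker lists those that passed, with others given as values. Not every such gene is reported here. Sequences are from RefSeq (GRCm38.p6) and GENCODE M21, and 4 of the 8 components matched the RefSeq promoter table. Biopython 1.88 aligned C4b and C4a. Other settings tried were pseudocount, filter, scaling, variance trend, replicate block and the libraries used.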

Additional observations from a re-analysis of the deposited data

How the results depend on the processing

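The sign of C4b, C1qb, Cfd and Serping1 was the same in every alternative that tested them (15 for C4b, C1qb and Serping1, and 14 for Cfd). Reversed signs, none of them past the threshold, were seen for Cfb after centring (-0.031), quantile normalization (-0.029), rescaling without mitochondrial genes (-0.028) and without DM replicate 2, for C3 without Ctrl replicate 2, and for C1qa and C1qc without DM replicate 1. With a library left out, the log2 fold change ranged from -0.14 to 0.18 for Cfb, from -0.017 to 0.48 for C3, from -0.20 to 0.059 for C1qa and from -0.19 to 0.030 for C1qc. Of all genes 672 passed, with 81 when no filter was used, 64 with the replicate number as a block, 1169 with Ctrl replicate 3 added and 24 to 398 when a library was left out. Of the 8 components 1 passed, with 0 when no filter was used, 0 with the replicate block and 2 with Ctrl replicate 3 added (C4b and Serping1), and 0 to 1 when a library was left out. Of the other complement genes 1 passed, with 0 when no filter was used, 0 with a filter at 5 FPKM, where C7 was not tested, 0 with the replicate block, 2 with Ctrl replicate 3 added (C7 among them), and 0 to 1 when a library was left out. Ctrl replicate 3 lists neither C4b nor C7, so adding it brought no value for them and left their log2 fold changes unchanged. Leaving out either Ctrl library leaves a single one, which is assumed to vary like the DM libraries. The replicate numbers were not taken to pair the libraries, since the labels do not say so and same-numbered libraries deviated together unevenly (correlations over 4811 genes of 0.18, -0.05 and 0.15 for numbers 1, 2 and 3). Under that block C4b had a log2 fold change of 1.17 (limma adjusted p = 0.112) and C7 of -1.59 (limma adjusted p = 0.0537). DM replicate 3 alone carries number 3 in that fit, so both log2 fold changes equal those without DM replicate 3 and are not a separate check. The depth behind low values such as those of Cfd and C7 is unknown, and 5 libraries limit the precision of all values.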
